A study of Mus musculus with 12 samples.

Results

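The miR-34 family of the mouse comprises the 2 arms of each of 3 hairpins, and its 6 mature miRNAs are mmu-miR-34a-5p, mmu-miR-34a-3p, mmu-miR-34b-5p, mmu-miR-34b-3p, mmu-miR-34c-5p and mmu-miR-34c-3p. These 6 were chosen by name from 1966 mature miRNAs in the count table, and 4 of the 6 were among the 809 miRNAs with enough counts to be tested. Small RNA was sequenced from the quadriceps, a thigh skeletal muscle, of wild-type (WT) C57BL/6J mice carrying no transgene or deletion. The mice were sacrificed at postnatal day 1 (P1), 5 (P5), 14 (P14) or 90 (P90, adult), and each age had 3 libraries, 12 in all. Each age used 3 mice, no mouse was sampled at more than 1 age, and the libraries of one age differed by more than counting error.

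miR-34a is transcribed from one locus, whereas miR-34b and miR-34c are processed from a shared primary transcript at another. Both loci are known transcriptional targets of the tumour suppressor p53, and the 5p arms of the family repress mRNAs of cell cycle and survival genes through a shared seed, the bases 2 to 8 that pair with the target. The miR-34b/34c locus and the related miR-449 locus are best known from multiciliated epithelia and testis, while miR-34a is found in most tissues, where it tends to accumulate with age.

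The mature sequences show which arms can read the same target sites, and are given 5′ to 3′ from RefSeq (GRCm38.p6) with the seed in capitals. RefSeq sequences were at hand for 5 of the 6 members and for 2 relatives with the same seed. The hairpin Mir34a lies on chromosome 4 (150068454 to 150068555, plus strand), and Mir34c (51103034 to 51103110) and Mir34b (51103562 to 51103645) lie 451 bases apart on the minus strand of chromosome 9. In the GENCODE annotation Mir34a falls in an intron of the long noncoding RNA gene Gm13067 on the same strand. It also overlaps the edge of an exon of a further gene, Gm37795, again on the same strand. Mir34b and Mir34c fall in an intron of the protein-coding gene Btg4 on the opposite strand.
mmu-miR-34a-5p (chr4:150068473-150068494, plus): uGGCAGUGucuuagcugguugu
mmu-miR-34b-5p (chr9:51103610-51103632, minus): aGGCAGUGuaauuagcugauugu
mmu-miR-449a-5p (chr13:113037549-113037570, plus): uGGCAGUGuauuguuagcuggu
mmu-miR-449c-5p (chr13:113036008-113036028, plus): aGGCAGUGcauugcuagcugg
mmu-miR-34b-3p (chr9:51103574-51103595, minus): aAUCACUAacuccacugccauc
mmu-miR-34c-3p (chr9:51103044-51103065, minus): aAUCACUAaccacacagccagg
mmu-miR-34a-3p (chr4:150068517-150068537, plus): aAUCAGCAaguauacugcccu

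Of 1679 mature mouse sequences at hand, 4 carried the 5p seed GGCAGUG, namely mmu-miR-34a-5p, mmu-miR-34b-5p, mmu-miR-449a-5p and mmu-miR-449c-5p. The sequences of mmu-miR-34c-5p and of the relative mmu-miR-449b were missing from that set, so the count does not cover these miRNAs. The 3p arms of the chromosome 9 hairpins had a different seed, AUCACUA, which no other sequence in the set carried. mmu-miR-34b-3p and mmu-miR-34c-3p matched at 17 of 22 positions and differed at U11C, C12A, U16A, U21G and C22G, counted from 1 at the 5′ end with the base of mmu-miR-34b-3p first. The seed of mmu-miR-34a-3p, AUCAGCA, was found in that sequence alone. mmu-miR-34a-5p and mmu-miR-449a-5p matched at 15 of 22 positions. How the counting treated reads that fit more than 1 arm was not stated in the sources used here.

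Library totals ranged from 20363495 to 33771032 miRNA counts at P1, P5 and P14 and from 43776307 to 53126984 at P90. Levels are given as CPM, that is, counts relative to library size, here scaled by the trimmed mean of M-values (TMM), whose factors were 0.247 to 0.384 at P90 and 1.24 to 1.73 at the other ages. Accordingly 1 CPM stood for 12.01 to 18.86 counts at P90 and for 28.6 to 44.3 counts earlier, so the adult libraries were the deepest in total and the shallowest per CPM. The muscle markers miR-1a-3p, miR-133a-3p and miR-206-3p summed to 153000 to 206600 CPM at P1 and to 1450000 to 2370000 CPM at P90, above the nominal total because the TMM-scaled library is smaller than the counted one. Of these, 2 were called higher and 1 lower for P90 versus P1, and the lower one, miR-206-3p, stood at 16890 to 18920 CPM at P1 and at 1049 to 1513 CPM at P90. None of the 19 miRNA markers of blood, endothelium, neurons, epithelium and muscle was at 0 over all libraries of an age. The share of G and C in a miRNA was related to its log2 departure from its mean over the 12 libraries. The slopes were opposite in the P14 and P90 libraries, at 0.363 to 0.542 and -0.551 to -0.354 per 10 percentage points.

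The family was present at moderate to very low levels, and 1 arm of each hairpin dominated. Over the 12 libraries mmu-miR-34a-5p collected 5925 counts and mmu-miR-34a-3p only 18. From the chromosome 9 locus, mmu-miR-34c-5p collected 4122 counts and mmu-miR-34c-3p 176, whereas at miR-34b the 3p arm prevailed, with 776 counts against 33 for mmu-miR-34b-5p. By mean CPM mmu-miR-34a-5p ranked 319, mmu-miR-34c-5p 354, mmu-miR-34b-3p 494 and mmu-miR-34c-3p 658 among the 1966 miRNAs, and the median tested miRNA stood at 4.80 CPM. Mature miRNAs are of nearly equal length, so their counts were compared without scaling by length, but how efficiently each sequence enters a library was not measured.

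mmu-miR-34a-5p, the guide arm of the miR-34a locus, increased with age relative to TMM-scaled libraries. Its 3 libraries stood at 10.14, 12.60 and 11.55 CPM at P1 and at 14.4, 12.6 and 13.4 CPM at P5, from 383 to 595 counts each. They stood at 18.2, 14.8 and 18.7 CPM at P14 and at 16.4, 22.6 and 27.2 CPM at P90. All P14 and P90 libraries were above all P1 libraries, and the P14 libraries were above the P5 libraries, but P5 overlapped P1 and P90 overlapped P14. The mean level was 11.4 ± 1.23 CPM in newborns (P1), 13.5 ± 0.910 on P5, 17.3 ± 2.12 on P14 and 22.1 ± 5.46 in adults (SD, n = 3).

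Across the 4 ages mmu-miR-34a-5p differed in edgeR's quasi-likelihood test (Padj = 0.00238, Benjamini-Hochberg over 809 miRNAs). Between P1 and P90 it rose 1.93-fold, a log2 fold change of 0.95 (SE 0.20, 95% interval 0.52 to 1.37, edgeR Padj = 0.000587), and this direction held under all scalings tried except library totals alone, where the fold change was -1.37. Between P1 and P14 the log2 fold change was 0.59 (SE 0.20, edgeR Padj = 0.0210). The single steps were smaller, with log2 fold changes of 0.24 for P5 versus P1 (edgeR Padj = 0.671), 0.36 for P14 versus P5 (Padj = 0.163) and 0.35 for P90 versus P14 (Padj = 0.141), none past the threshold of 0.05. The last of these was called higher in 7 of 21 alternatives, namely RLE factors (0.72, edgeR Padj = 0.00446), upper-quartile factors (1.91), DESeq2 (0.71, Padj = 0.00120), a fit of the 2 ages (0.67, Padj = 0.0367), the GC correction (0.54, Padj = 0.0302), and without P5 replicate 2 (0.59, Padj = 0.0263) or P90 replicate 1 (0.54, Padj = 0.0218). It was called lower under library totals (-1.92, Padj = 3.02e-07). The P14 versus P1 call was lost when P1 replicate 1, P1 replicate 3, P14 replicate 1 or P14 replicate 3 was left out (edgeR Padj = 0.124, 0.0591, 0.0791 and 0.0864), without the filter (0.46, Padj = 0.165) and under totals without miR-1a-3p and miR-1b-5p (0.41, Padj = 0.0867).

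mmu-miR-34c-5p, the guide arm of the miR-34c hairpin of the miR-34b/34c locus, moved the other way. Its libraries stood at 13.4, 12.6 and 8.77 CPM at P1 and at 12.3, 11.9 and 13.2 CPM at P5. They stood at 9.72, 6.28 and 9.40 CPM at P14 and at 4.88, 5.04 and 7.75 CPM at P90, where 82 to 95 counts were behind each value. Every P90 library was below every P1 and P5 library, P14 lay below P5 without overlap, and P14 overlapped both P1 and P90. The mean level was 11.6 ± 2.47 CPM in newborns, 12.4 ± 0.655 on P5, 8.47 ± 1.90 on P14 and 5.89 ± 1.61 in adults (SD, n = 3).

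Across the ages mmu-miR-34c-5p differed (edgeR Padj = 0.00393). Between P1 and P90 it was 1.98-fold lower, with a log2 fold change of -0.98 (SE 0.25, 95% interval -1.51 to -0.46, edgeR Padj = 0.00238), and of the 5 scalings tried only upper-quartile factors gave the other sign (0.88). The step from P5 to P14 was -0.56 (SE 0.24, edgeR Padj = 0.0731) and the step from P14 to P90 -0.53 (SE 0.25, Padj = 0.0789), so both fell short of the threshold after adjustment. Without P90 replicate 3 the step from P5 to P14 passed it (-0.59, edgeR Padj = 0.0413), and the step from P14 to P90 passed it without P14 replicate 2 (-0.70, Padj = 0.0242) or P90 replicate 3 (-0.71, Padj = 0.0311). Under RLE factors (edgeR Padj = 0.0394), totals without miR-1a-3p and miR-1b-5p (0.0329) and DESeq2 (0.0285) the step from P5 to P14 was also called lower. The step from P14 to P90 was also called lower under those totals (-0.82, edgeR Padj = 0.00571) and under library totals (-2.79). Upper-quartile factors called it higher (1.03, edgeR Padj = 0.00146). P5 versus P1 gave 0.10 (SE 0.24, edgeR Padj = 0.917) and P14 versus P1 gave -0.45 (SE 0.24, Padj = 0.135). Under totals without miR-1a-3p and miR-1b-5p the last value was called lower (-0.63, edgeR Padj = 0.0266).

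mmu-miR-34b-3p, the more abundant arm of the other chromosome 9 hairpin, was lowest in adults. It stood at 2.38, 2.35 and 1.36 CPM at P1, at 2.61, 2.04 and 1.81 CPM at P5 and at 2.07, 1.45 and 2.62 CPM at P14. At P90 it stood at 0.832, 1.27 and 1.08 CPM, from 14, 24 and 13 counts. The P90 libraries were the lowest of the 12, while the 3 younger ages overlapped one another. For 13 counts the exact 95% Poisson interval is 6.92 to 22.2 counts, and this interval, like the others here, covers counting error only.

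The log2 fold change of mmu-miR-34b-3p was -0.93 for P90 versus P1 (SE 0.37, 95% interval -1.72 to -0.14, edgeR Padj = 0.0374), a 1.91-fold decrease, and -0.94 for P90 versus P14 (SE 0.37, edgeR Padj = 0.0418). The test over the 4 ages missed the threshold (edgeR Padj = 0.0849). The P90 versus P1 call was lost when P1 replicate 1 or 2, P5 replicate 2, or P90 replicate 1 or 3 was left out (edgeR Padj = 0.0717 to 0.141), and upper-quartile factors turned its sign (0.95). The P90 versus P14 call was kept when P14 replicate 2 or P90 replicate 2 was left out and lost without any one of the other libraries (edgeR Padj = 0.0566 to 0.158), among them all those of P1 and P5, which enter only through the shared fit. RLE factors (-0.56, edgeR Padj = 0.207), DESeq2 (-0.57, Padj = 0.294), a fit of the 2 ages alone (-0.62, edgeR Padj = 0.252) and no filter (-0.84, Padj = 0.174) also ended it, and upper-quartile factors turned its sign (0.64, Padj = 0.161). Means were 2.03 ± 0.584, 2.15 ± 0.413, 2.05 ± 0.584 and 1.06 ± 0.221 CPM at P1, P5, P14 and P90 (SD, n = 3).

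mmu-miR-34c-3p, the minor arm of miR-34c, showed no difference that its counts could resolve in the TMM-scaled fit. It had 17, 35 and 12 counts at P1, 12, 14 and 24 at P5, 21, 19 and 2 at P14, and 14, 6 and 0 at P90. The groups overlapped at every age, and P14 replicate 3 and P90 replicate 3 were within 3 counts of 0. The P90 versus P1 log2 fold change of -0.37 had an SE of 0.92 and a 95% interval of -2.33 to 1.59 (edgeR Padj = 0.732). Changes of the size seen for mmu-miR-34c-5p in either direction thus lie inside that interval. Of 21 alternatives for this contrast 1, library totals alone, called mmu-miR-34c-3p lower (-2.51, edgeR Padj = 0.0277).

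mmu-miR-34a-3p and mmu-miR-34b-5p, the minor arms of their hairpins, did not pass the filter on low counts and were tested only in the fit without it, where neither passed the threshold across the ages (edgeR Padj = 0.709 and 0.576). mmu-miR-34a-3p had 8 counts in P1 replicate 3 and 0 to 3 in each of the other 11 libraries. mmu-miR-34b-5p had 1, 12 and 3 counts at P1, 7, 4 and 1 at P5, 0, 0 and 1 at P14, and 1, 2 and 1 at P90. A count of 0 allows up to 3 counts, so a listed 0 cannot be told from a low level. At counts this low no fold is given.

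**Figure D1:**
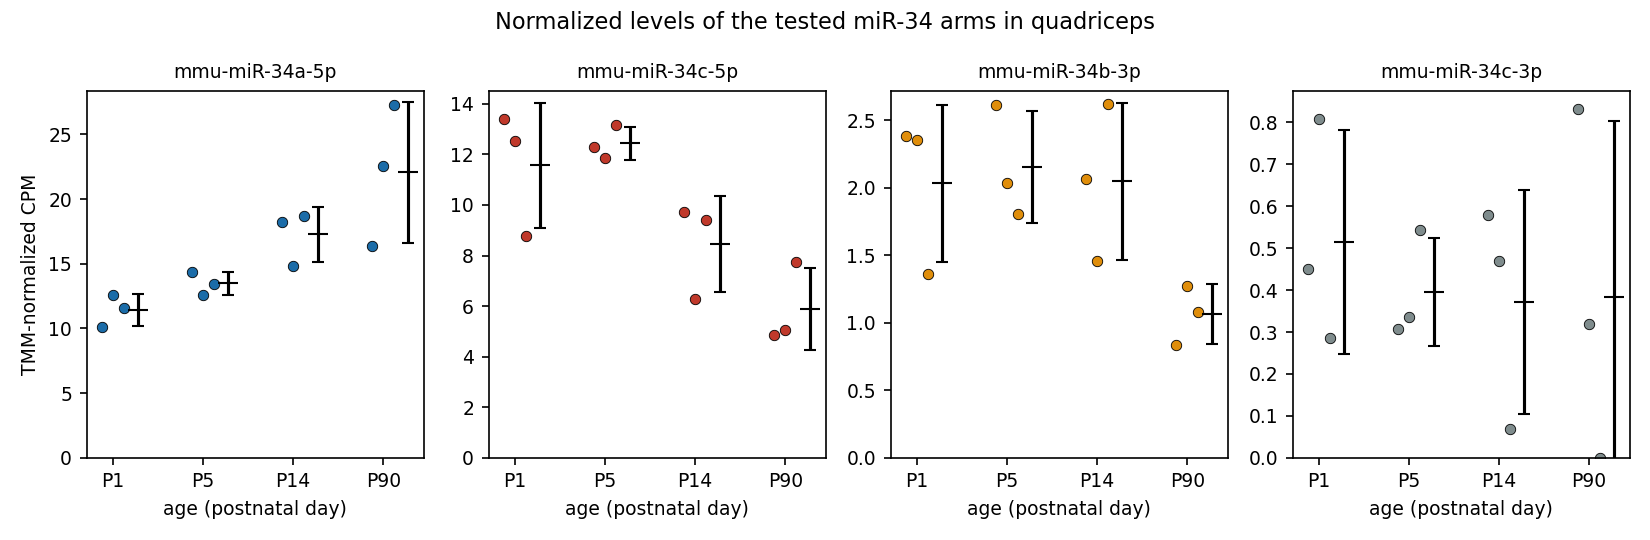
TMM-normalized CPM (y axes start at 0 and differ in range) of the 4 tested arms by age in postnatal days, with 1 point per library and the mean ± SD beside it (n = 3). mmu-miR-34a-5p climbs from 11.4 to 22.1 CPM, mmu-miR-34c-5p drops from 11.6 to 5.89 CPM, mmu-miR-34b-3p is lowest at P90, and mmu-miR-34c-3p stays below 1 CPM with overlapping groups.

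The number of members past the threshold has to be read against all tested miRNAs, since most of them changed with age. Across the 4 ages 2 of the 4 tested members were called, against 72.4% of all tested miRNAs. For P90 versus P1, 3 of 4 members were called against 66.4%. In that contrast 1 member was higher (25.2% of all tested were called higher) and 2 were lower (41.2% were called lower). The groups of 587 of the 809 tested miRNAs, 72.6%, did not overlap between P90 and P1, as was the case for these 3 members. Under upper-quartile factors 3 members were called higher and 0 lower, and under library totals 0 higher and 4 lower.

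The shorter intervals gave few calls. None of the 4 members was called for P5 versus P1 by edgeR, none had an unadjusted p under 0.05, and DESeq2 called 0, where 4.45% of all tested miRNAs were called. For P14 versus P5 edgeR again called 0 members against 44.4% of all tested, with 1 at an unadjusted p under 0.05 and 1 called by DESeq2, mmu-miR-34c-5p. For P90 versus P14 the one edgeR call was mmu-miR-34b-3p, against 59.1% of all tested, whereas DESeq2 called mmu-miR-34a-5p and not mmu-miR-34b-3p. For P14 versus P1 the one call was mmu-miR-34a-5p, against 49.1%.

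Since a ratio of 2 miRNAs within a library does not depend on how libraries are scaled, the miR-34a and miR-34b/34c loci were compared by the raw count ratio of their main arms. At P1 the libraries had 1.32, 0.996 and 0.759 counts of mmu-miR-34c-5p per count of mmu-miR-34a-5p, and at P5 0.853, 0.943 and 0.978. At P14 the ratio was 0.533, 0.424 and 0.502, and at P90 it was 0.298, 0.223 and 0.284. The newborn muscles thus held counts of both arms within 1.32-fold of each other, every P14 library was below every P1 and P5 library, and every P90 library was below every P14 library. Mean ratios were 1.03 ± 0.282 in newborns, 0.925 ± 0.0648 on P5, 0.486 ± 0.0565 on P14 and 0.269 ± 0.0400 in adults (SD, n = 3).

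The ratio differed between ages (exact permutation test of any difference between the 4 ages on the log2 ratio, p = 0.000455, Benjamini-Hochberg over 3 ratios 0.00136). From P1 to P90 it fell 3.74-fold, a log2 difference of -1.90. Of that, P14 versus P5 contributed -0.93 and P90 versus P14 -0.86, while P5 versus P1 differed by -0.11 with overlapping groups. With 3 libraries against 3 an exact two-sided permutation test cannot go below p = 0.1, which each pair of ages except P5 and P1 reached (p = 0.7 for that pair). The spread between the P1 libraries was wider than at any other age.

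The second arm of the chromosome 9 locus gave a like picture later. The ratio of mmu-miR-34b-3p to mmu-miR-34a-5p was 0.180 ± 0.0591 in newborns, 0.159 ± 0.0235 on P5, 0.117 ± 0.0212 on P14 and 0.0490 ± 0.00845 in adults (SD, n = 3). It differed between ages (exact permutation p = 0.00351, adjusted 0.00526) and was 3.48-fold lower at P90 than at P1. All P90 libraries were below all others, whereas the 3 younger ages overlapped. This ratio shares its denominator with the former and is not independent of it.

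Within the miR-34b/34c locus, in contrast, the test over the 4 ages detected no difference. The ratio of mmu-miR-34b-3p to mmu-miR-34c-5p was 0.173 ± 0.0168 in newborns, 0.174 ± 0.0376 on P5, 0.241 ± 0.0342 on P14 and 0.188 ± 0.0583 in adults (SD, n = 3, exact permutation p = 0.226, adjusted 0.226). P90 and P1 overlapped, with a log2 difference of 0.10. The P14 libraries lay above those of P5 without overlap, by 0.48 on the log2 scale (exact p = 0.1, the smallest possible for this pair). P14 also lay above P1 without overlap, by 0.47 (exact p = 0.1). Thus, relative to mmu-miR-34a-5p, the arms from the hairpins 451 bases apart were both lower at P90 than at P1, while their ratio to each other overlapped between these ages. A ratio gives relative change only.

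**Figure D2:**
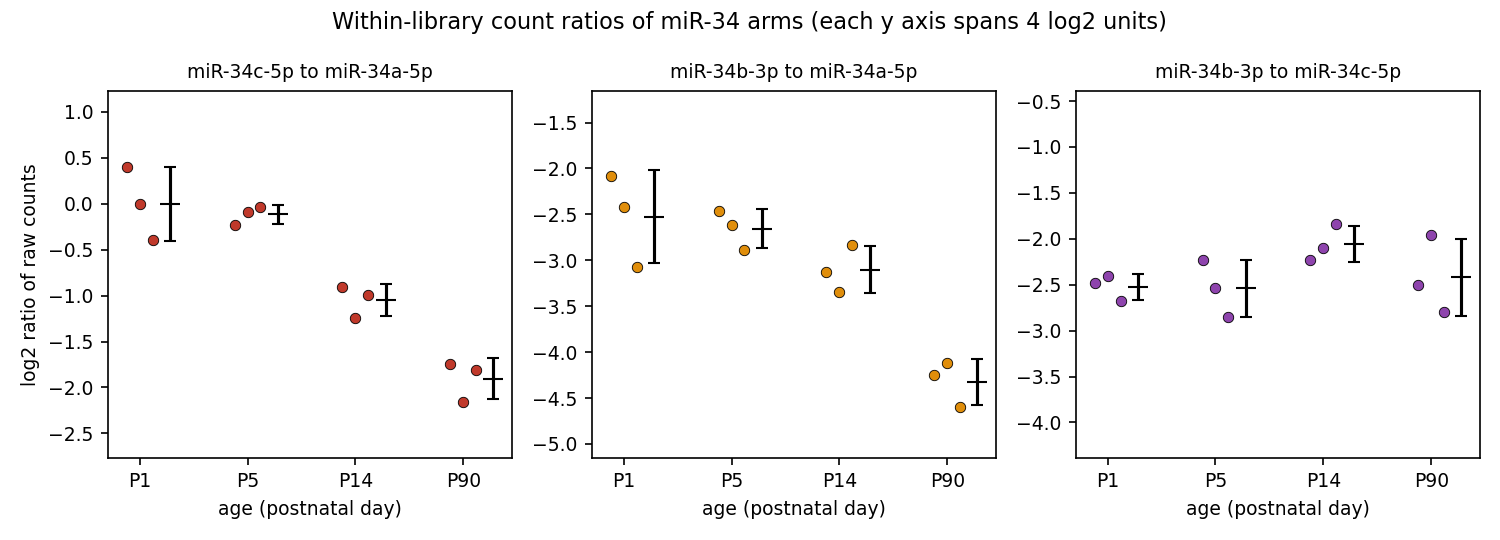
Log2 of the raw count ratio within each library for 3 pairs of miR-34 arms by age in postnatal days, with the mean ± SD of 3 libraries beside the points and y axes of equal span. Both ratios to mmu-miR-34a-5p are lowest at P90, where the mean ratio of mmu-miR-34c-5p to mmu-miR-34a-5p is 0.269 against 1.03 at P1, while the ratio within the miR-34b/34c locus shows overlapping P1 and P90 libraries.

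Summing all arms of a locus gave the same order of ages. Counts from the miR-34b/34c locus per count from the miR-34a locus were 1.60, 1.27 and 0.893 at P1, 1.06, 1.14 and 1.16 at P5, 0.678, 0.552 and 0.647 at P14, and 0.401, 0.296 and 0.327 at P90. The balance was thus on the chromosome 9 side in 5 of the 6 libraries from P1 and P5 and on the chromosome 4 side in all 6 later ones. The sums are dominated by the main arms and are given as a description.

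The scaling of the adult libraries changed the sign of single members. The gap between the loci hardly moved, which follows from arithmetic, since a scaling shifts all miRNAs of a library alike. For P90 versus P1 the median log2 fold change of all 809 tested miRNAs was -0.72 under TMM, -0.37 under relative log expression (RLE) factors, 1.177 under upper-quartile factors, -2.97 under library totals alone and -1.17 under totals without miR-1a-3p and miR-1b-5p. The corresponding numbers of all tested miRNAs called higher and lower were 204 and 333 under TMM, 391 and 192 under upper-quartile factors and 36 and 647 under library totals. mmu-miR-34a-5p stood 1.60 to 1.66 above that median in each scaling, mmu-miR-34b-3p 0.21 to 0.23 below it and mmu-miR-34c-5p 0.27 to 0.32 below it. Relative to the median tested miRNA, therefore, mmu-miR-34a-5p was higher, and the chromosome 9 arms moved almost with the median. The spread of the 809 around that median is not given here, and 25.2% of them were called higher under TMM. A rise was thus not particular to mmu-miR-34a-5p.

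The log2 fold change of mmu-miR-34c-5p minus that of mmu-miR-34a-5p lay between -1.94 and -1.92 in the 5 scalings. This near constancy follows from the shared shift and is no separate support for the contrast. The absolute values for mmu-miR-34a-5p ran from -1.37 under library totals to 2.82 under upper-quartile factors. Those for mmu-miR-34c-5p ran from -3.29 to 0.88 and those for mmu-miR-34b-3p from -3.19 to 0.95 under the same scalings. A fall or rise in the amount of any 1 member per muscle was not measured.

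**Figure D3:**
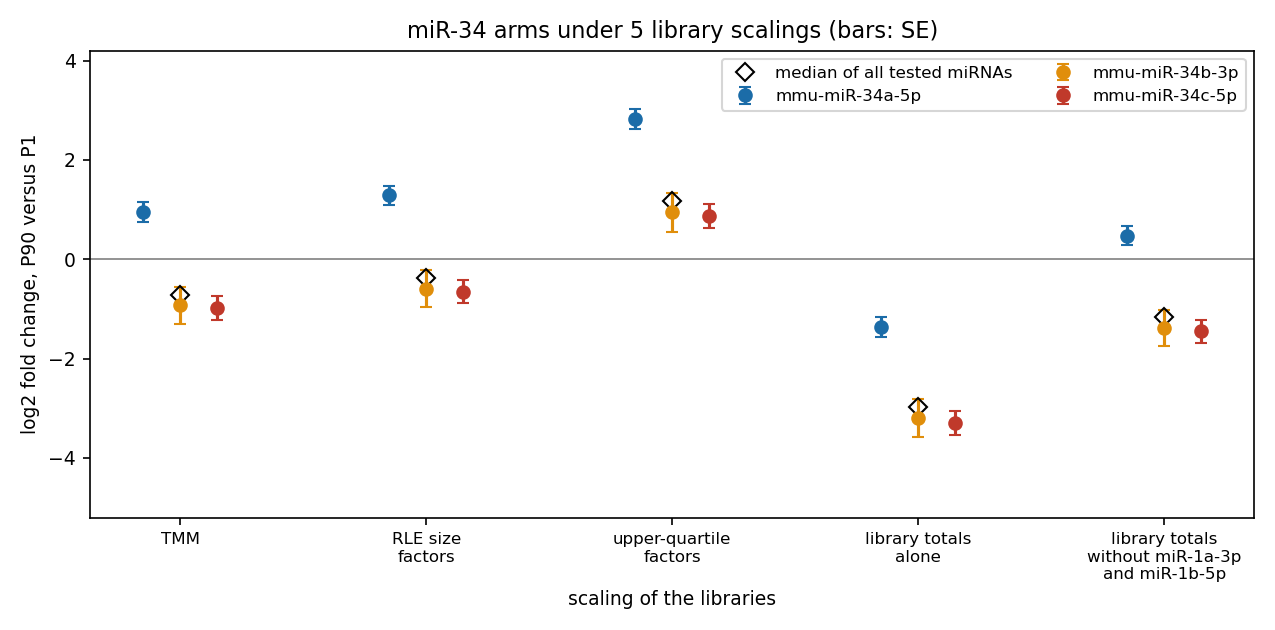
Log2 fold change of P90 versus P1 (y axis, bars are SE) for mmu-miR-34a-5p, mmu-miR-34b-3p and mmu-miR-34c-5p under 5 scalings of the libraries (x axis), with the median of all 809 tested miRNAs as a diamond. All values shift together with the scaling, as arithmetic requires, and mmu-miR-34a-5p stays 1.60 to 1.66 above the median while the other arms stay just under it.

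The arms that share the seed GGCAGUG were then viewed as one pool, since they can pair with the same seed sites. Their summed TMM-scaled level was taken with mmu-miR-34c-5p counted in as a 5p arm of the family. It lay between 21.0 and 27.8 CPM in newborns, 25.2 and 28.3 on P5, 21.96 and 29.55 on P14, and 21.4 and 35.4 in adults. Every pair of ages overlapped under this scaling, and the sum was not computed under another. In raw counts the pool held 880 to 1133 per library at P1 and 359 to 530 at P90, where library totals were larger. The make-up of the pool shifted. mmu-miR-34a-5p held 46.6 ± 9.38% of its counts in newborns, 49.9 ± 1.01% on P5, 64.3 ± 2.98% on P14 and 78.0 ± 2.09% in adults (SD, n = 3). mmu-miR-34c-5p held 41.8 to 48.3% of them in newborns, 43.4 to 47.8% on P5, 28.6 to 32.9% on P14 and 17.9 to 22.8% in adults.

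Of the relatives, mmu-miR-449a-5p, from a chromosome 13 cluster known from ciliated epithelia, had 140, 30 and 19 counts at P1, 46, 16 and 40 at P5, 58, 31 and 35 at P14, and 1, 7 and 4 at P90. P1 replicate 1 stood out with 140 counts, 13.4% of its pool, and the adult libraries were the lowest. Its log2 fold change was -2.66 for P90 versus P1 (SE 0.86, edgeR Padj = 0.0128) and -2.22 for P90 versus P14 (SE 0.86, Padj = 0.0379), although the test over the 4 ages gave edgeR Padj = 0.0639. Upper-quartile factors ended both calls (-0.82 and -0.66), and RLE factors ended that for P90 versus P14 (-1.85). mmu-miR-449c-5p had at most 18 counts and was listed at 0 in the 3 adult libraries, and the other arms of the miR-449 hairpins were at 0 throughout.

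**Figure D4:**
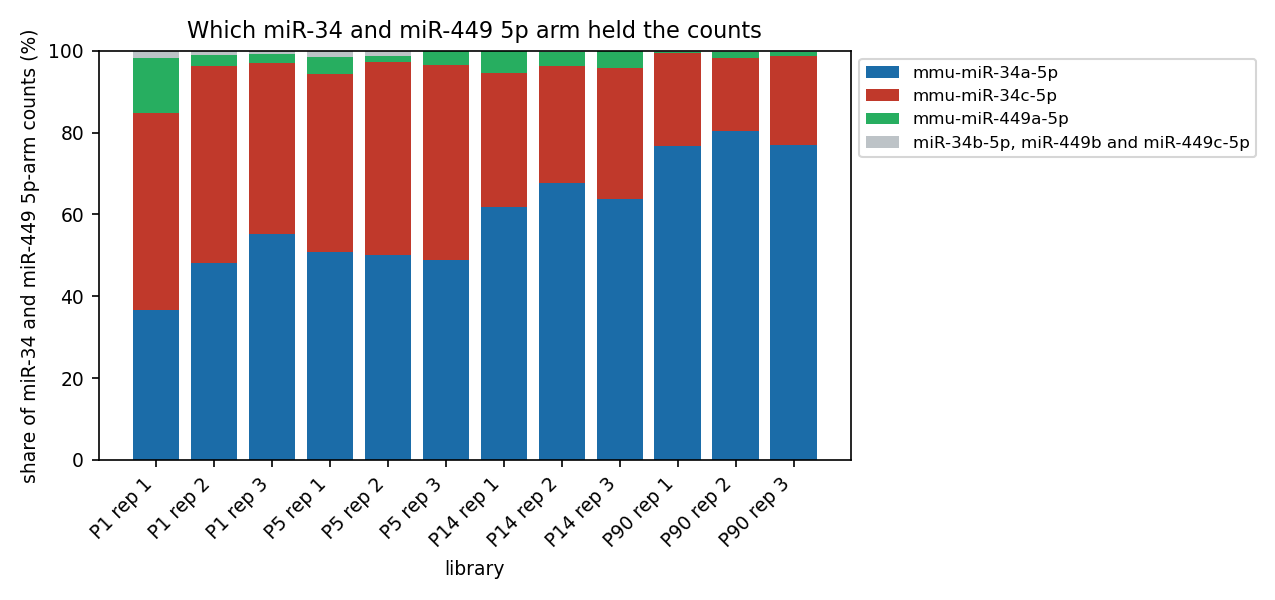
Share in percent of the miR-34 and miR-449 5p-arm counts of each of the 12 libraries that came from each miRNA. mmu-miR-34a-5p grows from 36.6 to 55.1% in the P1 libraries to 76.6 to 80.4% in the P90 libraries, and mmu-miR-449a-5p is widest in P1 replicate 1.

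Under TMM scaling, markers of other cell types moved over the same ages. The epithelial list (miR-200a-3p, miR-200b-3p, miR-200c-3p, miR-141-3p, miR-429-3p, miR-205-5p and miR-449a-5p) summed to 62.6 to 104 CPM in newborns, 54.1 to 92.5 on P5, 24.0 to 46.1 on P14 and 28.4 to 32.1 in adults, and 4 of its 7 members were called lower and 0 higher for P90 versus P1. The endothelial list (both arms of miR-126a) summed to 3353 to 4367 CPM at P1 and 9661 to 12990 at P90, with both arms called higher. The blood list of 4 summed to 411 to 577 CPM at P1 and 538 to 693 at P90 (2 higher, 1 lower), and the neuronal list of 3 to 104 to 207 and 190 to 222 CPM (1 higher).

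The epithelial sums were lower at P14 and P90 than at P1 and P5, the ages at which mmu-miR-34c-5p was also lower on average. mmu-miR-34b-3p did not run along, since its mean was 2.03 CPM at P1 and 2.05 CPM at P14 and fell to 1.06 CPM at P90, where the epithelial sums lay within the P14 range. Under TMM scaling the endothelial sums were higher at P90 than at P1, as was mmu-miR-34a-5p. Raw counts of miR-126a-3p were 132906 to 150980 at P1 and 144793 to 221234 at P90, where library totals were larger. The marker sums were not computed under other scalings. The part of these cell types in the miR-34 values was not tested. In whole muscle, fewer cells of a type and less of a miRNA per cell cannot be told apart.

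Other miRNAs described as p53-responsive did not all share the direction of mmu-miR-34a-5p. The list held miR-192, miR-194, miR-215, miR-143, miR-145a, miR-15a, miR-16, miR-107, miR-200c and miR-141, with 22 arms in the table and 16 tested. For P90 versus P1 edgeR called 9 of the 16 higher and 2 lower, where 25.2% of all tested miRNAs were called higher and 41.2% lower, with a median log2 fold change of 0.98 against -0.72 for all tested miRNAs. Scaling by library totals turned this to 0 higher and 15 lower, against 36 higher and 647 lower of all 809, with a median of -1.31 against -2.97.

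Among the arms that rose, miR-143-3p and miR-145a-5p, a cluster abundant in smooth muscle, had log2 fold changes of 1.87 (SE 0.14) and 1.82 (SE 0.13). miR-16-5p and miR-15a-5p, which repress cell cycle genes, had 1.60 (SE 0.14) and 1.22 (SE 0.19). miR-194-5p and miR-192-5p had 1.21 (SE 0.15) and 0.92 (SE 0.18). The arms called lower were the passenger strands miR-16-1-3p (-1.05, SE 0.42) and miR-16-2-3p (-1.49, SE 0.33), and the epithelial miR-200c-3p gave -0.56 without a call (edgeR Padj = 0.0574). For P5 versus P1 none of the 16 was called, for P14 versus P5 1 was higher and 4 lower, and for P90 versus P14 8 were higher and 0 lower. Of all 809 tested, 146 were called higher and 213 lower for P14 versus P5, and 181 higher and 297 lower for P90 versus P14.

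The miRNAs whose profile over the 12 libraries was most like that of mmu-miR-34a-5p were miR-133a-5p (Pearson r = 0.897), miR-27b-3p (r = 0.894) and miR-30c-2-3p (r = 0.882), out of 349 with a mean of at least 10 CPM. Their own P90 versus P1 log2 fold changes were 1.79, 0.94 and 3.75, so profile and size of change were not alike for all. For mmu-miR-34c-5p the closest were miR-130b-3p (r = 0.905), miR-376c-3p (r = 0.900) and miR-322-5p (r = 0.898), with log2 fold changes of -4.46, -4.55 and -0.72. These correlations describe log2 CPM values of libraries that share 4 ages and 1 set of scaling factors.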

How the data were processed

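Small RNA of quadriceps was sequenced in 12 libraries. Per the study's methods, the authors kept reads of 10 to 35 nt (cutadapt 1.18), aligned them to GRCm38 with Bowtie2 (2.4.1), and counted them over miRBase mature miRNAs with featureCounts (2.0.1); the deposited values are raw counts per mature miRNA. Strand and multi-mapping settings are not given in the sources used here.

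From these counts, miRNAs passing filterByExpr were fitted over all 12 libraries with edgeR (4.0.16, R 4.3.3; TMM, age as group, quasi-likelihood test), with Benjamini-Hochberg adjustment over 809 miRNAs and a threshold of 0.05. The edgeR fit was tested on simulated counts with equally many rises and falls at P90. That simulation does not bear on the choice of scaling. Count ratios (pseudocount 0.5) were tested by exact permutation; those with miR-34b-3p were added after the data had been seen. The members and lists were chosen with earlier results of these data known. The miRNAs named are the 6 members, their same-seed relatives, the p53-responsive list, cell type markers and the 3 most correlated miRNAs of each main arm. DESeq2 (1.42.0), 4 other scalings, no filter, GC correction, a replicate block and leaving out each library were alternatives. Sequences are from RefSeq, and host genes from GENCODE vM39 (GRCm39, names only). Depth sets precision: 13 counts carry an exact 95% Poisson interval of 6.92 to 22.2.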

Additional observations from a re-analysis of the deposited data

How the results depend on the processing

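Scaling cancels in the count ratios, so the contrast of the loci could not depend on it, whereas the calls of single members did. An effect that differs between sequences, such as the GC trend, need not cancel, and the ratios were not tested against it. The 15 alternatives for each ratio were other pseudocounts, the replicate block and leaving out each library. Over them the P90 versus P1 difference in the ratio of miR-34c-5p to miR-34a-5p ran from -2.10 to -1.70 (permutation p 6.49e-05 to 0.00521). That for miR-34b-3p to miR-34a-5p ran from -2.07 to -1.58 (p 0.000455 to 0.0174), and that within the miR-34b/34c locus from -0.13 to 0.29 (p 0.0736 to 0.522). The replicate block gave p of 0.00521, 0.0174 and 0.238 for the 3 ratios. P90 versus P1 was past the threshold in 21 of 21 alternatives for miR-34a-5p, in 20 of 20 for miR-34c-5p and in 11 of 21 for miR-34b-3p, counting for each the 1 scaling that turned its sign. For miR-34b-3p RLE factors (Padj = 0.172), no filter (0.0927), DESeq2 (0.244) and a fit of 2 ages (0.0946) ended the call.

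Signs turned in 6 values. Under library totals miR-34a-5p gave -1.37 for P90 versus P1 and -1.92 for P90 versus P14. Under upper-quartile factors miR-34b-3p gave 0.95 and 0.64, and miR-34c-5p 0.88 and 1.03, for the same contrasts. A further 42 of 461 values changed sign with no call in either fit. For P14 versus P5 the count of members called rose from 0 to 1 in several alternatives, but not for the same member. The call was miR-34c-5p lower under RLE factors, totals without miR-1 and DESeq2. It was miR-34a-5p higher under upper-quartile factors, library totals and a fit of 2 ages (leaving out 1 library, the count was 0 to 1). For P90 versus P14 the count moved from 1 to 2 under upper-quartile factors (2 higher), totals without miR-1 (2 lower) and the GC correction (1 higher, 1 lower). The count moved to 3 under library totals (3 lower) and to 0 without the filter or with the replicate block (leaving out 1 library, 0 to 2). For P14 versus P1 it fell from 1 to 0 without the filter (leaving out 1 library, 0 to 1), and totals without miR-1 exchanged the call, from miR-34a-5p higher to miR-34c-5p lower. For P90 versus P14, RLE factors, DESeq2 and a fit of 2 ages likewise kept 1 call but exchanged miR-34b-3p lower for miR-34a-5p higher. The causes were not tested. Over all tested miRNAs, P5 versus P1 had 36 calls, 8 without P5 replicate 3 and 87 in a fit of 2 ages.

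Replicate numbers did not pair the libraries (correlations of deviations -0.173 to 0.114 over 18 pairs, 1 above 0.1). The replicate block left 2 members called for P90 versus P1, with miR-34b-3p at -0.92 (edgeR Padj = 0.0611). The GC correction gave no value for miR-34c-5p. The adult libraries held 13 to 24 counts of miR-34b-3p, and the part of depth in its error was not tested.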
